A study of Mus musculus with 24 samples.

Results

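Pericytes and smooth muscle cells wrap blood vessels from the outside, and this report describes 10 genes that mark them or carry the platelet-derived growth factor (PDGF) signal that recruits them, in endothelial sorts from mouse aorta and leg muscle. They are the ligand genes Pdgfa and Pdgfb, the receptor genes Pdgfra and Pdgfrb, the mural markers Cspg4, Rgs5, Notch3 and Anpep, and the channel genes Kcnj8 and Abcc9. The genes were picked by name for their known roles, though with earlier results of these data known. They are 10 of the 18539 gene symbols on the array. Between them they have 17 probes, and each gene is described on its brightest probe. The brightest probe of every one of the 10 genes was well above background on all 24 arrays.

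The arrays fall into 8 groups of 3, made of tissue (aorta or skeletal muscle), strain and diet. WT mice were C57BL/6 and KO mice were homozygous for a targeted germline deletion in Lgals3, the gene of the lectin galectin-3. Male mice of 8 weeks of age were given a high-fat diet (HFD, 60% of calories as fat) or chow (12%) for 8 weeks. In each of 3 experiments, live cells that were CD105+ and CD45- were sorted from pools of 3 to 4 mice per strain and diet, about 10000 cells a pool, and both tissues came from the same animals. CD105 is the endothelial surface protein endoglin and CD45 is a leukocyte protein, so none of the 10 genes was used in the sort. Replicates are the 3 experiments, and p-values measure the spread between pools rather than between single mice. Each array was hybridised with 1 pool, and levels are log2 of a probe's signal over the 75th percentile of its array, so that a level of 0 means a signal at that percentile. Probes bind with different strength, so levels are compared between groups for a gene and never between genes.

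In blood vessels, endothelial cells secrete PDGF-B, which is held near the vessel wall and binds the receptor PDGFRB on pericytes and smooth muscle cells, where it drives their recruitment and survival. PDGF-A acts mainly on the sister receptor PDGFRA, which in adult tissue is a gene of fibroblasts and other mesenchymal cells rather than of pericytes. Kcnj8 encodes the pore and Abcc9 the regulatory subunit of the ATP-sensitive potassium channel of mural cells, which couples their tone to metabolism.

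The upstream sequences of 4 of the genes are given because the results turn on them. Pdgfra and Rgs5 have the largest differences between the tissues, in opposite directions, and Kcnj8 and Abcc9 are neighbours on chromosome 6 with 0 annotated genes between them whose levels moved together. The sequences are the 250 bases before the annotated start, from RefSeq on GRCm38.p6, 5′ to 3′ on the strand of the gene. They cover chr5:75152001-75152250 (plus strand) for Pdgfra, chr1:169655251-169655500 (plus) for Rgs5, chr6:142571615-142571864 (minus) for Kcnj8 and chr6:142702275-142702524 (minus) for Abcc9. Capitals mark the E box CANNTG and the GC box GGGCGG, which reads CCGCCC where it lies on the other strand.
Pdgfra: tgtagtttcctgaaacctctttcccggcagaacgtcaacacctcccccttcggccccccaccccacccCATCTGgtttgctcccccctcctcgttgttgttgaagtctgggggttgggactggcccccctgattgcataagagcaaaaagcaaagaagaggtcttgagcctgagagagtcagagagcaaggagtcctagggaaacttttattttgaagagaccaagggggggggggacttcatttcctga
Rgs5: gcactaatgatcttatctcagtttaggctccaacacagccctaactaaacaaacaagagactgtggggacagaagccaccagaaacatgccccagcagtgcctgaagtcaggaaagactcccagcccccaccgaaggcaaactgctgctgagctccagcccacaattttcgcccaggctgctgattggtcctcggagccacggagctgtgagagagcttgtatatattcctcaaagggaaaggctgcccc
Kcnj8: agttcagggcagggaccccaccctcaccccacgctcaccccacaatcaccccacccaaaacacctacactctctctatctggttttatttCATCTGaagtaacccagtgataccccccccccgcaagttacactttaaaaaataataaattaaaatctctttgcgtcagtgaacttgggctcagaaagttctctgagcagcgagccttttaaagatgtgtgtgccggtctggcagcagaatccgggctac
Abcc9: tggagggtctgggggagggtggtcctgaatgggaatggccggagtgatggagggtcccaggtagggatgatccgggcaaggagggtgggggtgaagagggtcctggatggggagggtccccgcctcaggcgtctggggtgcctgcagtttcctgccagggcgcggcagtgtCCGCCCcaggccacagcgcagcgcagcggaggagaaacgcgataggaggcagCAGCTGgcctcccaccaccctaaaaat
Entries of 8 of the 10 genes were used, and none was used for Pdgfb and Pdgfrb. In these, 6 motifs were searched on both strands, with overlaps allowed. They were the GC box (GGGCGG), the TATA box (TATAAA), the Notch effector motif of RBPJ (TGGGAA), the E box (CANNTG), the AP-1 motif (TGACTCA) and the CArG box of smooth muscle genes. Pdgfra and Kcnj8 hold 1 CANNTG each. Abcc9 holds 1 CANNTG, 1 GGGCGG and 1 TGGGAA, and Rgs5 holds none of the 6. Of all 32851 upstream windows of this length, 66.2% hold CANNTG, 32.7% GGGCGG and 21.6% TGGGAA, so the matches are common ones. The window of Abcc9 is 66.8% G and C and that of its neighbour Kcnj8 49.2%, against a median of 52.4% over all windows. These are letters in a window, and no binding was measured.

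Several facts of the series bear on the values. All 15 endothelial markers were well above background on every array. Of the 10 fibroblast markers, 9 or 10 were well above background on every array. In bulk RNA, fewer cells of a type and less RNA per cell cannot be told apart. The Lgals3 probe was higher in the array labelled KO in 11 of 12 same-tissue, same-diet pairs of an experiment, and whether it lies in the deleted part of the gene was not analysed here. On 34 probes that differed between strains in experiments 2 and 3, HFD arrays from experiment 1 (4 in all) were placed between WT and KO (median place 0.199 to 0.405, where 0 is WT and 1 is KO), while the 4 chow arrays of that experiment lay on the side of their labels (0.0346 and 0.0845 for WT, 0.908 and 1.02 for KO). The strain of those 4 HFD arrays is therefore given as labelled, and diet results are also given without them. In the paired diet fits, leaving them out gives the same differences as leaving out experiment 1, because their chow arrays lose their pair.

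The tissue difference was the largest contrast among the 10 genes. No slide held arrays of both tissues, so a difference between tissues cannot be told apart from a difference between slides. Pdgfra and Anpep were many times higher in the aorta, while Rgs5, Pdgfb, Notch3 and Cspg4 were higher in muscle and Pdgfrb showed no detectable difference in the mean of the groups. With limma over all 24 arrays, 8 of the 10 genes passed the adjusted threshold of 0.05, 3 of them higher in the aorta and 5 higher in muscle. Of all 27387 probes tested, 46.1% passed, 16.0% higher in the aorta and 30.1% higher in muscle. The median of the 10 differences, aorta minus muscle, was -0.24, beside -0.27 over all probes.

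The ligand genes split between the tissues. Pdgfb, the ligand through which endothelium recruits pericytes, had levels of 0.23 to 2.79 (median 1.88) on the 12 aorta arrays and 2.32 to 3.52 (median 3.08) on the 12 muscle arrays. The ranges overlap only through aorta chow arrays, 1 of them WT (2.66) and 1 KO (2.79), and in all 12 pools the muscle array was the higher. The fitted difference was -1.41 ± 0.24 (SE), which is 2.66-fold lower in the aorta (limma adjusted p = 9.4e-05). Pdgfa, which signals through PDGFRA, went the other way, with 3.00 to 4.09 (median 3.52) in the aorta and 2.55 to 3.54 (median 3.13) in muscle. It was 1.38-fold higher in the aorta (+0.46 ± 0.15, adjusted p = 0.0159) and higher in 11 of 12 pools, but its ranges overlap widely. Without experiment 2 its adjusted p was 0.139 and without experiment 3 it was 0.116.

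Of the receptors, Pdgfra had the largest tissue difference of the 10 genes. In the aorta its level in experiments 1 to 3 was 4.80, 2.42 and 4.42 in WT chow, 4.90, 4.67 and 4.48 in WT HFD, 3.24, 3.53 and 3.67 in KO chow and 4.69, 4.76 and 4.34 in KO HFD. In muscle it was 0.21, -1.84 and -1.44 in WT chow, 1.76, -1.15 and 0.43 in WT HFD, 0.77, -1.25 and -0.76 in KO chow and 1.49, 0.51 and -0.48 in KO HFD. All aorta arrays lie above all muscle arrays, and in muscle experiment 1 gave the highest array of every group. Pdgfra was 19.8-fold higher in the aorta (+4.31 ± 0.36, adjusted p = 3.1e-08). The fibroblast markers moved with it. All 10 passed the test as higher in the aorta, with a median difference of 4.68, and their mean level ranged from 4.22 to 5.88 on aorta arrays and from -1.03 to 3.21 on muscle arrays. Their part in the difference was not tested.

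Pdgfrb, the gene of the PDGF-B receptor, did not differ detectably between the tissues in the mean of the 4 strain and diet groups. It ranged from 4.40 to 5.66 (median 5.04) in the aorta and from 4.13 to 5.35 (median 5.04) in muscle. The difference was +0.09 ± 0.15 (95% confidence interval -0.22 to 0.39, adjusted p = 0.646), and 8 of 12 pools were higher in the aorta. Within the groups the mean of aorta minus muscle was -0.15 in WT chow (2 of 3 pools higher in the aorta) and -0.64 in KO chow (0 of 3), against +0.77 in WT HFD (3 of 3) and +0.35 in KO HFD (3 of 3). The interval is for the mean of the groups and not for any one of them.

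**Figure D1:**
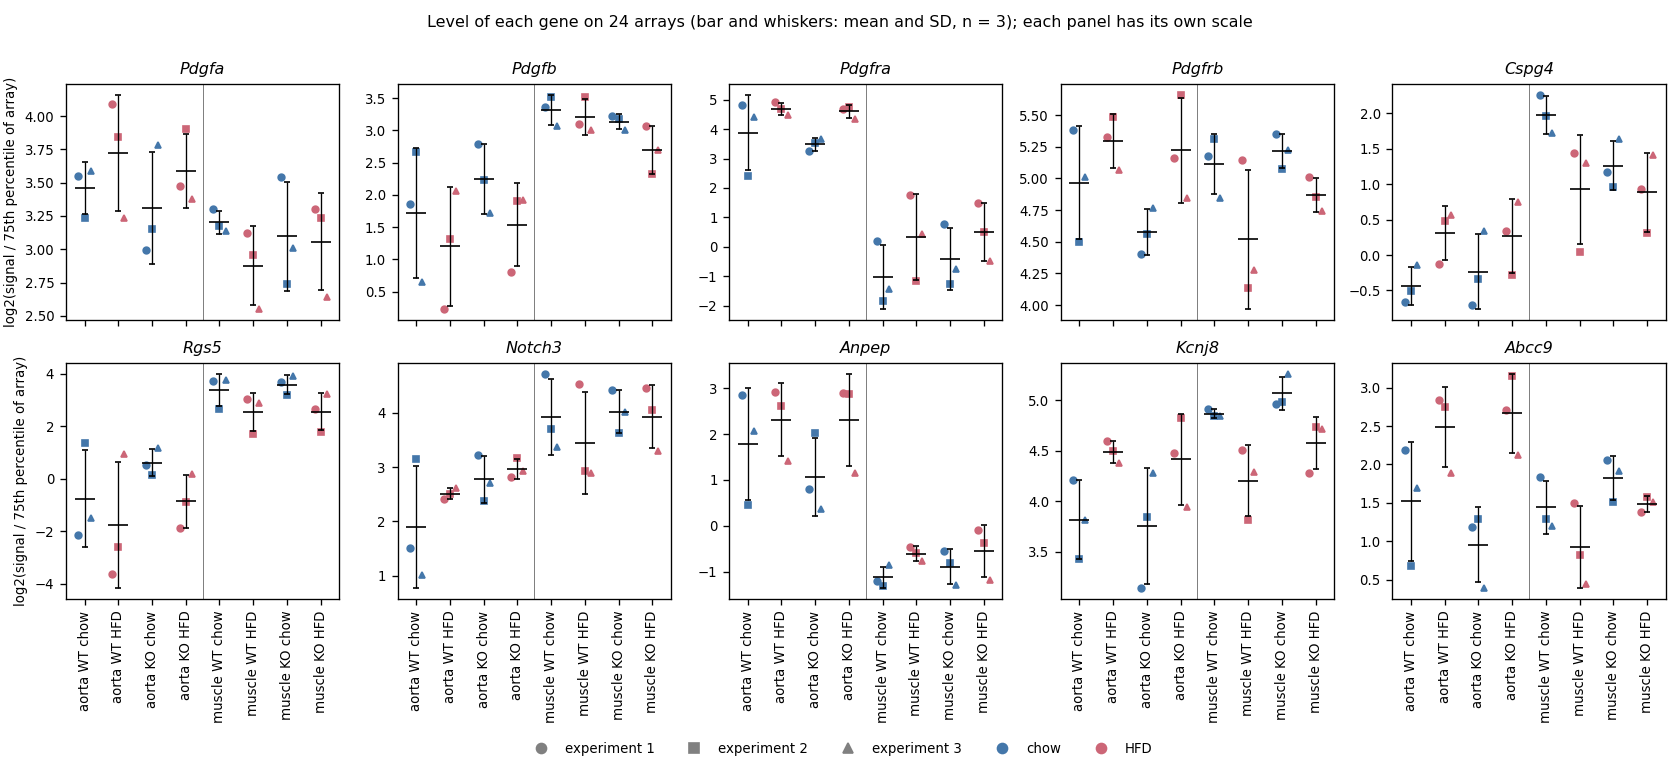
Level of each of the 10 genes on the 24 arrays, as log2 of signal over the 75th percentile of the array (y axis, own scale in each panel), for the 8 groups on the x axis. Marker shape gives the experiment, colour the diet, and the bar with whiskers the mean and SD of 3 arrays. Pdgfra and Anpep lie higher on every aorta array than on any muscle array, and Rgs5 lies higher on every muscle array.

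In the comparison of tissues the mural markers did not follow Pdgfrb. Rgs5, a regulator of G protein signalling and a classic pericyte transcript, was at -2.13, 1.35 and -1.50 in WT chow aorta, -3.64, -2.59 and 0.95 in WT HFD, 0.51, 0.15 and 1.18 in KO chow and -1.88, -0.89 and 0.17 in KO HFD. In muscle it was at 3.71, 2.67 and 3.75 in WT chow, 3.03, 1.69 and 2.87 in WT HFD, 3.66, 3.17 and 3.90 in KO chow and 2.65, 1.79 and 3.21 in KO HFD. The lowest muscle array lies above the highest aorta array, and the aorta arrays spread over a far wider range than the muscle arrays. Rgs5 was 13.0-fold lower in the aorta (-3.70 ± 0.47, adjusted p = 3.9e-06).

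Anpep, the surface peptidase known as aminopeptidase N, had the pattern of Pdgfra. It ranged from 0.37 to 2.92 (median 2.04) in the aorta and from -1.32 to -0.10 (median -0.79) in muscle, with no overlap. It was 6.33-fold higher in the aorta (+2.66 ± 0.29, adjusted p = 6.4e-07). Pdgfra, Rgs5 and Anpep are thus 3 of the 10 genes whose 12 aorta and 12 muscle arrays do not overlap, a pattern that 5.65% of all probes tested have.

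Cspg4, the gene of the NG2 proteoglycan, and Notch3, the Notch receptor of mural cells, were both higher in muscle. Cspg4 was 2.44-fold lower in the aorta (-1.29 ± 0.20, adjusted p = 3.4e-05) and the aorta array was the higher in 1 of 12 pools. Notch3 was 2.46-fold lower (-1.30 ± 0.26, adjusted p = 0.000441), with levels of 1.01 to 3.23 in the aorta and 2.88 to 4.72 in muscle, and the muscle array was the higher in all 12 pools.

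Averaged over diets, the channel genes had small differences between tissues. Kcnj8 ranged from 3.14 to 4.83 in the aorta and from 3.81 to 5.26 in muscle and was 1.47-fold lower in the aorta (-0.56 ± 0.15, adjusted p = 0.00506). That call was lost with quantile normalization (adjusted p = 0.0624), in the deposited log2 table (0.137) and without experiment 3 (0.0677). Its neighbour Abcc9 had a difference of +0.49 ± 0.20 that just missed the threshold (adjusted p = 0.0515), and it passed with the animal pool as a block (0.0206). By diet, aorta minus muscle for Kcnj8 was -1.05 in WT chow and -1.31 in KO chow (0 of 3 pools higher in the aorta in each) against +0.29 in WT HFD (3 of 3) and -0.16 in KO HFD (2 of 3). For Abcc9 it was +0.08 in WT chow (2 of 3) and -0.87 in KO chow (0 of 3) against +1.56 in WT HFD and +1.17 in KO HFD (3 of 3 in each).

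**Figure D2:**
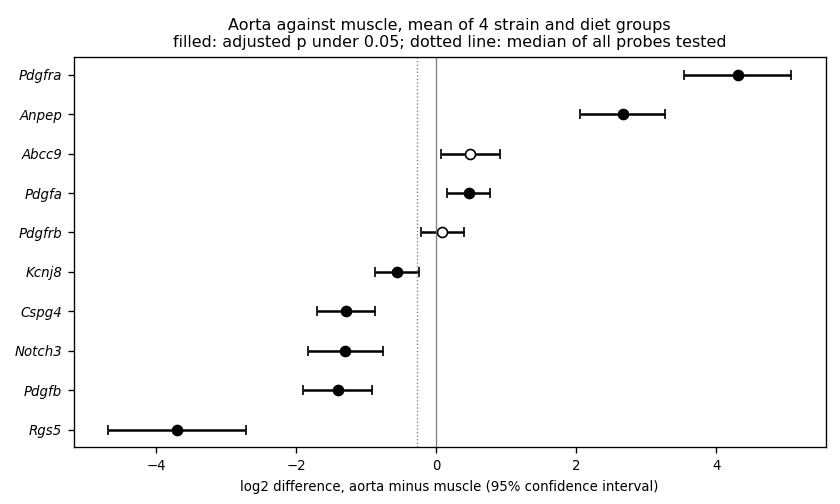
Fitted log2 difference between aorta and muscle (x axis, aorta minus muscle, with its 95% confidence interval) for the 10 genes (y axis), as the mean of the 4 strain and diet groups over 24 arrays. Filled points passed the adjusted threshold, and the dotted line is the median of all probes tested, -0.27. Pdgfra lies at 4.31 and Rgs5 at -3.70, with Pdgfrb near 0.

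The median of all probes was -0.27 with the main scaling, -0.19 with quantile normalization and -0.01 in the deposited table, in which the authors aligned the arrays of each tissue. No tissue difference of the 10 genes changed sign under these. The 7 other probes of the genes had the same sign as the brightest probe of their gene in this comparison.

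The wider families held both directions too. Of 23 other genes of PDGF signalling, 7 were higher in the aorta and 10 lower, with a median of -0.30. Those higher were Pdgfrl, a receptor-like protein (+5.06), the ligand gene Pdgfc (+3.57), the endocytic receptor gene Lrp1 (+2.88), the phosphatase gene Ptprj (+2.00), Plat, whose protease activates PDGF-C (+1.55), Src (+1.21) and Shc1 (+0.49). Those lower were Hdac9 (-2.33), Plcg1 (-2.11), Nck2 (-1.28), the co-receptor gene Nrp1 (-1.26), Rasa1 (-0.92), Nck1 (-0.86), Grb2 (-0.80), Crk (-0.80), Pik3ca (-0.56) and Crkl (-0.47). Of the adaptor genes among them, Grb2, Crk, Crkl, Nck1 and Nck2 were on the muscle side and Shc1 on the aorta side.

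Of 30 other pericyte and mural genes, 29 had a probe and were tested, with 8 higher in the aorta, 13 lower and a median of -0.32. Those higher were led by the transcription factor genes Foxd1 (+5.65) and Foxf2 (+4.87), the endosialin gene Cd248 (+3.39), the ligand gene Angpt1 (+2.62) and Tbx18 (+2.20), followed by Ednra (+1.46), Aspn (+0.98) and Foxc1 (+0.57). Those lower were led by the vitronectin gene Vtn (-2.76), Higd1b (-2.50), the intermediate filament gene Des (-2.10), Rgs4 (-2.05), Art3 (-1.81) and Mcam (-1.60). The remaining 7 were Gucy1a3 (-1.26) and Gucy1b3 (-1.13), which encode the nitric oxide receptor, Cox4i2 (-1.10), Lamc3 (-1.02), Heyl (-0.92), S1pr3 (-0.88) and Enpep (-0.67). Endothelial markers were themselves lower in the aorta, 14 of 15 by the test, with a median of -1.03. Of the 10 smooth muscle markers 1 was called higher in the aorta and 4 lower, with a median of -0.34. All 10 skeletal muscle fibre genes were lower in the aorta, with a median of -6.75, and 7 of 7 adipocyte genes tested were higher, with a median of 2.28. The part of these in the differences of the 10 genes was not tested.

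HFD against chow within a tissue underlies the comparison of diet responses between KO and WT. None of the 10 genes passed the adjusted threshold in either tissue. In the aorta 8 of the 10 differences lay above 0, and in muscle 8 of the 10 lay below 0. Rgs5 and Pdgfb lay below 0 in both tissues, and Pdgfra and Anpep above 0 in both. Over all probes the median difference was 0.01 in the aorta and -0.01 in muscle. The 10 genes were measured on the same arrays, so their signs are not independent. The values that follow are therefore descriptions of pairs and not called changes. Each pair is an HFD and a chow array of the same tissue, strain and experiment.

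In the aorta, averaged over the strains, 0 of the 10 genes passed limma's adjusted threshold, beside 0.0309% of all probes, and 4 of 10 had an unadjusted p under 0.05, beside 15.1% of all probes. The median of the 10 differences was 0.55, beside 0.01 over all probes. In WT alone 0 passed (0% of all probes) with 2 at an unadjusted p under 0.05 (5.77%), and in KO alone 0 passed (0%) with 1 (11.3%). The methods' test on the 3 ratios gave 1 gene in WT (4.71% of all probes) and 2 in KO (6.71%) at an unadjusted p under 0.05 and 0 in either after adjustment. Without the HFD arrays of experiment 1, 1 of the 10 had an unadjusted p under 0.05 in the mean of the strains, beside 11.3% of all probes.

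Abcc9, the channel's regulatory subunit, had the largest aorta difference. In the aorta its level in experiments 1 to 3 was 2.19, 0.67 and 1.69 in WT chow against 2.83, 2.74 and 1.89 in WT HFD, and 1.19, 1.28 and 0.40 in KO chow against 2.71, 3.15 and 2.13 in KO HFD. The HFD array was the higher in all 6 pairs, the KO groups did not overlap and the WT groups did. The mean difference was +1.34 ± 0.27 (unadjusted p = 0.00208, limma adjusted p = 0.151), and without the HFD arrays of experiment 1 it was +1.46. Its 2 other probes gave +1.51 and +1.61, also with 6 of 6 pairs higher on HFD. Its partner Kcnj8 was at 4.21, 3.43 and 3.81 in WT chow against 4.60, 4.49 and 4.37 in WT HFD, and at 3.14, 3.84 and 4.28 in KO chow against 4.48, 4.83 and 3.94 in KO HFD. The HFD array was the higher in 5 of 6 pairs, with KO of experiment 3 the exception, and the difference was +0.67 ± 0.27 (adjusted p = 0.316). The share of all probes whose chow and HFD arrays do not overlap within a strain is not given here.

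Cspg4 was at -0.66, -0.50 and -0.14 in WT chow against -0.13, 0.48 and 0.57 in WT HFD, and at -0.71, -0.34 and 0.34 in KO chow against 0.34, -0.28 and 0.75 in KO HFD. All 6 pairs were higher on HFD, by as little as 0.05 and as much as 1.05, and the mean was +0.62 ± 0.20 (adjusted p = 0.259). A second probe of Cspg4 gave +1.27 (adjusted p = 0.116), and on it the chow and HFD arrays of the aorta did not overlap in either strain. How many of all probes have no such overlap is not given here. Pdgfra also had 6 of 6 aorta pairs higher on HFD, with a mean of +0.96 ± 0.33 (adjusted p = 0.277). In WT its pairs differed by 0.10, 2.25 and 0.06, so 1 pair of WT carries most of the mean there, and in KO by 1.45, 1.23 and 0.67. On its other probe 4 of 6 aorta pairs were higher on HFD, and the WT pairs differed by -0.64, 2.20 and -0.30. Pdgfra, Cspg4 and Abcc9 are 3 of the 10 genes with all 6 aorta pairs higher on HFD, a pattern of 5.77% of all probes.

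Rgs5 and Pdgfb were the genes with aorta differences below 0, and neither was close to the threshold. Pairs of Rgs5 differed by -1.51, -3.94 and 2.45 in WT and by -2.39, -1.04 and -1.01 in KO. A single pair, WT of experiment 3, runs against the others, and the mean of -1.24 ± 0.76 had an adjusted p of 0.475. Pairs of Pdgfb differed by -1.62, -1.35 and 1.41 in WT and by -2.00, -0.33 and 0.21 in KO, with experiment 3 above 0 in both strains. Its mean was -0.61 ± 0.48 (adjusted p = 0.572), and without the HFD arrays of experiment 1 it was -0.02. The remaining genes had means of +0.88 ± 0.40 (Anpep), +0.48 ± 0.24 (Pdgfrb), +0.41 ± 0.33 (Notch3) and +0.27 ± 0.24 (Pdgfa). With 1 experiment left out at a time they ran from 0.57 to 1.29 for Anpep, from 0.21 to 0.70 for Pdgfrb, from 0.16 to 0.58 for Notch3 and from 0.065 to 0.59 for Pdgfa.

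Marker lists of other cells moved in the same aorta pairs. The 15 endothelial markers all had differences below 0 (median -0.59), and 0 passed by limma, with 5 at an unadjusted p under 0.05 (15.1% of all probes). Their mean level ranged from 3.42 to 4.41 on chow aorta arrays and from 2.52 to 4.03 on HFD aorta arrays. The 10 smooth muscle markers were all above 0 (median 0.49) and the 10 fibroblast markers were all above 0 (median 0.57), with 0 passing in either list and 4 and 2 at an unadjusted p under 0.05. The 7 adipocyte markers tested were all below 0 (median -4.14), with 2 of them called, Car3 and Cyp2e1. Their mean level ranged from 2.31 to 5.02 on chow and from -1.97 to -0.31 on HFD aorta arrays, without overlap. The part of these lists in the values of the 10 genes was not tested.

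**Figure D3:**
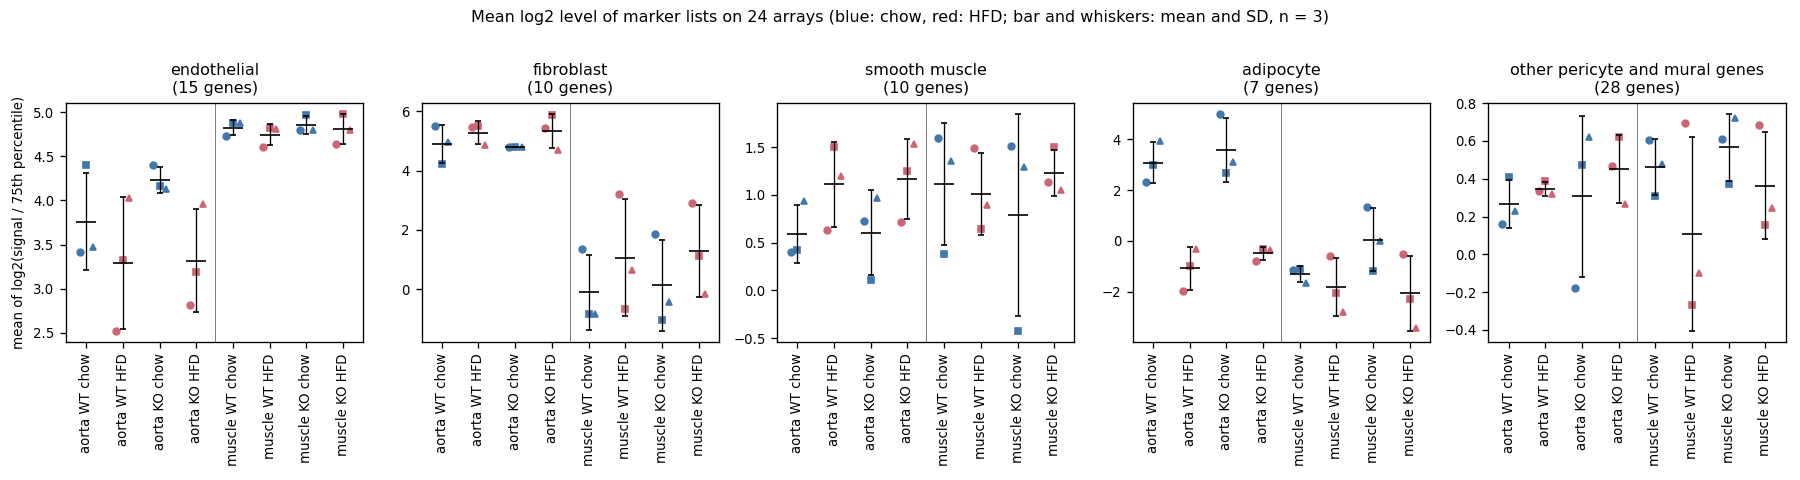
Mean log2 level of the endothelial, fibroblast, smooth muscle, adipocyte and other mural lists on the 24 arrays (y axis, mean over the genes of a list of log2 signal over the 75th percentile) for the 8 groups on the x axis. Colour gives the diet, marker shape the experiment, and the bar with whiskers the mean and SD of 3 arrays. The fibroblast list lies between 4.22 and 5.88 on aorta arrays and between -1.03 and 3.21 on muscle arrays.

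In muscle, averaged over the strains, 0 of the 10 genes passed limma's adjusted threshold, beside 0.288% of all probes, and 7 of 10 had an unadjusted p under 0.05, beside 16.4% of all probes. The median of the 10 differences was -0.36, beside -0.01 over all probes. In WT alone 0 passed (0%) with 4 at an unadjusted p under 0.05 (12.1%), and in KO alone 0 passed (0.00389%) with 2 (8.49%). The methods' test on the 3 ratios gave 1 gene in WT (8.25% of all probes) and 2 in KO (5.01%) at an unadjusted p under 0.05 and 0 after adjustment. Without the HFD arrays of experiment 1, 4 of the 10 had an unadjusted p under 0.05 in the mean of the strains, beside 11.2% of all probes.

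Rgs5 came nearest to a call in muscle. Its pairs differed by -0.67, -0.98 and -0.88 in WT and by -1.01, -1.38 and -0.69 in KO. All 6 pairs lie below 0 within a narrow range, in contrast to the wide scatter of the same gene in the aorta. The mean was -0.94 ± 0.16 (unadjusted p = 0.000611, adjusted p = 0.0915), which is 1.91-fold lower on HFD. It passed with normexp background correction (adjusted p = 0.0466), with only probes well above background on every array (0.0397) and with the slide as a block (0.0351). Without the HFD arrays of experiment 1 the mean was -0.98 (adjusted p = 0.342).

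Cspg4 in muscle was at 2.26, 1.96 and 1.72 in WT chow against 1.44, 0.04 and 1.30 in WT HFD, and at 1.17, 0.96 and 1.64 in KO chow against 0.94, 0.31 and 1.41 in KO HFD. All 6 pairs were lower on HFD, the WT groups did not overlap and the KO groups did. The mean was -0.71 ± 0.22 (adjusted p = 0.205), and the second probe gave -0.51. Kcnj8 was at 4.92, 4.84 and 4.84 in WT chow against 4.50, 3.81 and 4.29 in WT HFD, and at 4.96, 4.98 and 5.26 in KO chow against 4.28, 4.73 and 4.72 in KO HFD. Chow and HFD arrays of Kcnj8 did not overlap in either strain on this probe, and the mean was -0.58 ± 0.16 (adjusted p = 0.169). On its second probe they overlapped in both strains, and 5 of 6 pairs were lower on HFD with a mean of -0.37. For muscle too, the share of all probes whose chow and HFD arrays do not overlap within a strain is not given.

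Pdgfrb was lower on HFD in all 6 muscle pairs as well, by 0.03, 1.18 and 0.57 in WT and by 0.34, 0.22 and 0.48 in KO. Its mean was -0.47 ± 0.19 (adjusted p = 0.281). Abcc9 was lower in 5 of 6 pairs with a mean of -0.43 ± 0.16 (adjusted p = 0.268), and its 2 other probes, each lower in 6 of 6, gave -0.62 and -0.61. Pdgfrb, Pdgfb, Cspg4, Rgs5 and Kcnj8 are 5 of the 10 genes with all 6 muscle pairs lower on HFD, a pattern of 5.68% of all probes. This is on the brightest probes, and the second probes of Kcnj8 and Pdgfb were lower in 5 of 6 and 4 of 6 pairs. The pairs of Pdgfb differed by little, with a mean of -0.27 ± 0.16, and Notch3 (-0.28 ± 0.20) and Pdgfa (-0.18 ± 0.18) had pairs of both signs.

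Pdgfra and Anpep were the exceptions, with all 6 muscle pairs above 0. Pdgfra pairs differed by 1.55, 0.69 and 1.87 in WT and by 0.72, 1.76 and 0.28 in KO, with a mean of +1.15 ± 0.25 (unadjusted p = 0.00292, adjusted p = 0.126). Anpep had a mean of +0.43 ± 0.16 (adjusted p = 0.262). The 10 fibroblast markers were above 0 in muscle too, with a median of 0.98. By limma 0 were called and 7 had an unadjusted p under 0.05 (16.4% of all probes). Their part in the Pdgfra value was not tested. The endothelial list was nearly flat in muscle, with a median of -0.02. Of the 10 smooth muscle markers 4 were above 0 and 6 below (median -0.13), with 0 called by limma and 1 at an unadjusted p under 0.05. The 7 adipocyte markers tested were all below 0 (median -0.83), 1 of them called (Cyp2e1), and their mean level ranged from -1.66 to 1.32 on chow and from -3.43 to -0.51 on HFD muscle arrays. Of the 7 macrophage markers tested 6 were above 0 (median 1.58), 0 were called by limma and 3 had an unadjusted p under 0.05, with a mean level of -6.14 to -1.83 on chow and -5.14 to 0.52 on HFD. The part of these lists in the muscle values of the 10 genes was not tested.

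**Figure D4:**
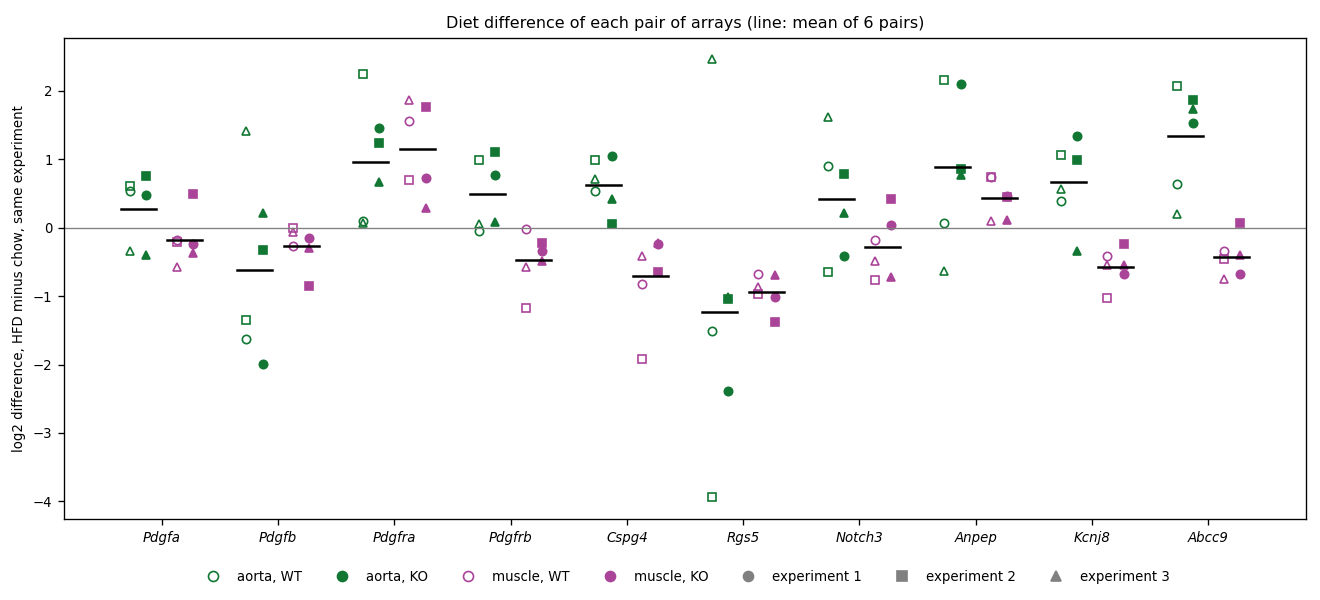
Log2 difference between the HFD and the chow array of the same tissue, strain and experiment (y axis) for the 10 genes (x axis). Colour gives the tissue, open or filled markers the strain, shape the experiment, and the line the mean of 6 pairs. Cspg4 has all 6 aorta pairs above 0 and all 6 muscle pairs below 0, and Pdgfra has all 12 pairs above 0.

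Whether the diet response differed between the tissues was tested as aorta minus muscle over all 12 pairs. By limma 0 of the 10 genes passed the adjusted threshold (0% of all 27387 probes), and 4 of 10 had an unadjusted p under 0.05, beside 9.24% of all probes. These 4 were Abcc9 (+1.76 ± 0.32, adjusted p = 0.139), Cspg4 (+1.34 ± 0.30, 0.198), Kcnj8 (+1.24 ± 0.31, 0.251) and Pdgfrb (+0.95 ± 0.30, 0.371). Without the HFD arrays of experiment 1 the differences were +1.85, +1.34, +1.16 and +1.16 in the same order. The other probes of 3 of them had the same sign, with +2.13 and +2.21 for Abcc9, +1.79 for Cspg4 and +1.19 for Kcnj8. Cspg4 was the only one of the 10 with all 6 aorta pairs above 0 and all 6 muscle pairs below 0, a pattern of 0.106% of all probes. It was noticed among the pairs already described and is no separate evidence.

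The remaining differences of response were +0.69 ± 0.40 (Notch3), +0.45 ± 0.46 (Anpep), +0.45 ± 0.29 (Pdgfa), -0.19 ± 0.44 (Pdgfra), -0.30 ± 0.86 (Rgs5) and -0.34 ± 0.55 (Pdgfb). The sign of the last 3 depended on single experiments. Pdgfra was -0.19 on its brightest probe and +1.16 on its other probe, which was not well above background on any muscle array. The median of the 10 differences was 0.57, beside 0.00 over all probes.

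None of the other PDGF signalling or mural genes was called for diet. Of the 23 other PDGF signalling genes, 3 in the aorta (15.1% of all probes) and 5 in muscle (16.4%) had an unadjusted p under 0.05. The 3 with the largest aorta differences were Lrp1 (+0.90), Pdgfc (-0.69) and Ptprj (-0.67), and in muscle they were Lrp1 (-0.87), Hdac9 (+0.80) and Plcg1 (-0.78). Of the 28 other mural genes tested in each tissue, 7 in the aorta (15.1% of all probes) and 8 in muscle (16.4%) had an unadjusted p under 0.05. The medians of the 28 were -0.03 and -0.26. The largest in the aorta were Heyl, a target gene of Notch signalling (+1.99 ± 0.27, adjusted p = 0.0798), Foxd1 (+1.35) and Nt5e (-1.33). In muscle they were Gucy1a3 (-1.39 ± 0.27, adjusted p = 0.105), Zic1 (-1.18) and Steap4 (-0.84). The aorta minus muscle response of Heyl was +2.60 ± 0.38 (adjusted p = 0.0779), above that of each of the 10 genes on its brightest probe, and it was chosen for its size.

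The comparison of strains gave no call among the 10 genes. Between strains, averaged over diets, 0 of 10 passed limma's adjusted threshold in the aorta (0.0116% of all probes) and 0 in muscle (0%), and 0 in either tissue had an unadjusted p under 0.05 (3.39% and 3.27% of all probes). KO minus WT ran from -0.37 ± 0.51 (Anpep) to +1.13 ± 0.81 (Rgs5) in the aorta and from -0.38 ± 0.29 (Cspg4) to +0.48 ± 0.22 (Abcc9) in muscle. The Rgs5 value is large but so is its error, with a 95% confidence interval of -0.66 to 2.92. In muscle without the HFD arrays of experiment 1, 3 of the 10 genes had an unadjusted p under 0.05, beside 4.84% of all probes, and Abcc9 was at +0.65 (adjusted p = 0.779). With 1 experiment left out at a time, 0 of 10 passed in the aorta and 0 in muscle.

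KO and WT arrays of a tissue, diet and experiment shared a slide, and their deviations from the group means correlated at 0.0682 to 0.587. With the slide as a block 0 of 10 genes passed in either tissue by limma. At an unadjusted p under 0.05 there were 0 in the aorta (4.95% of all probes) and 1 in muscle (5.62%), Abcc9, with an adjusted p of 0.823. Pdgfb was lower in KO in all 6 muscle pairs, by 0.14, 0.35 and 0.06 on chow and by 0.03, 1.20 and 0.30 on HFD. This is a pattern of 2.05% of all probes, and 5.51% have all 6 pairs in 1 direction, lower or higher. The direction was not chosen in advance. Pdgfra in muscle was higher in KO in all 3 chow pairs, by 0.56, 0.59 and 0.68, while its HFD pairs differed by -0.27, 1.66 and -0.91. Kcnj8 and Abcc9 were also higher in KO in all 3 muscle chow pairs, and Cspg4 and Pdgfb were lower in all 3. The share of all probes with 3 of 3 such pairs is not given here. None of these genes passed the test.

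The diet response did not differ detectably between KO and WT. By limma 0 of 10 genes passed in the aorta (0% of all probes) and 0 in muscle (0%), and 0 in either had an unadjusted p under 0.05 (2.62% and 4.12%). The KO minus WT difference of the response ran from -0.48 ± 1.52 (Rgs5) to +0.74 ± 0.55 (Abcc9) in the aorta and from -0.45 ± 0.51 (Pdgfra) to +0.68 ± 0.45 (Cspg4) in muscle. The 95% confidence intervals were wide, reaching from -4.12 to 3.15 for Rgs5 in the aorta and from -0.38 to 1.74 for Cspg4 in muscle. Without the HFD arrays of experiment 1, whose strain is in doubt, 0 of all probes passed in either tissue, and so 0 of the 10 genes. With 1 experiment left out at a time, the difference ran from 0.34 to 1.21 for Abcc9 in the aorta. For Cspg4 in muscle it ran from 0.39 to 0.92. Of the other probes, 1 of 7 in the aorta (Pdgfa) and 2 of 6 in muscle (Pdgfb and Abcc9) had the opposite sign to the brightest probe here, and 1 in each tissue (Kcnj8 in the aorta, Pdgfa in muscle) in the comparison of strains.

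Within a tissue, the 10 genes did not move as one block from array to array. Correlations are over the 12 arrays of a tissue, which share slides, experiments and the diet and strain groups, and are given as descriptions. Pdgfrb followed the channel genes in both tissues, with Pearson's r of 0.87 with Kcnj8 and 0.85 with Abcc9 in the aorta (Spearman's rho 0.85 and 0.90) and 0.77 and 0.82 in muscle (rho 0.67 and 0.65). With the 2 most extreme arrays of Pdgfrb left out, r was 0.78 and 0.83 in the aorta but 0.35 and 0.49 in muscle, so the muscle values rest largely on those arrays. The link was not particular to the channel genes. Pdgfrb had r = 0.77 with Pdgfa in the aorta and 0.60 in muscle. With Anpep it had 0.81 and -0.21, and with Notch3 -0.25 and 0.78. The muscle value with Notch3 was 0.52 without the 2 most extreme arrays. Kcnj8 and Abcc9 had r = 0.71 in the aorta and 0.74 in muscle (rho 0.80 and 0.68), and 0.63 and 0.76 without the 2 most extreme arrays.

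The correlations of Rgs5 are given for each tissue, and their difference between tissues was not tested. In the aorta it had r = -0.72 with Pdgfrb, -0.87 with Anpep, 0.79 with Pdgfb and 0.03 with Cspg4 (rho -0.73, -0.89, 0.72 and -0.08). In muscle the values were 0.55, -0.50, 0.14 and 0.77 (rho 0.41, -0.55, -0.15 and 0.67). Without the 2 most extreme arrays, r in the aorta was -0.83 with Pdgfrb, -0.89 with Anpep and 0.67 with Pdgfb, and r with Cspg4 in muscle was 0.35. The endothelial list ran with it, with r = 0.90 between that list and Rgs5 in the aorta (rho 0.83) and -0.22 in muscle (rho -0.23). For Pdgfb the same values were 0.86 (rho 0.82) and -0.25 (rho -0.06). Most other genes ran against the endothelial list in the aorta. There r was -0.87 (Anpep), -0.83 (Abcc9), -0.81 (Pdgfra and Pdgfrb), -0.75 (Pdgfa) and -0.74 (Kcnj8). It was -0.14 for Cspg4 and 0.28 for Notch3. In muscle r with that list ran from -0.65 (Pdgfra) to 0.28 (Kcnj8). The part of endothelial content in these values was not tested.

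**Figure D5:**
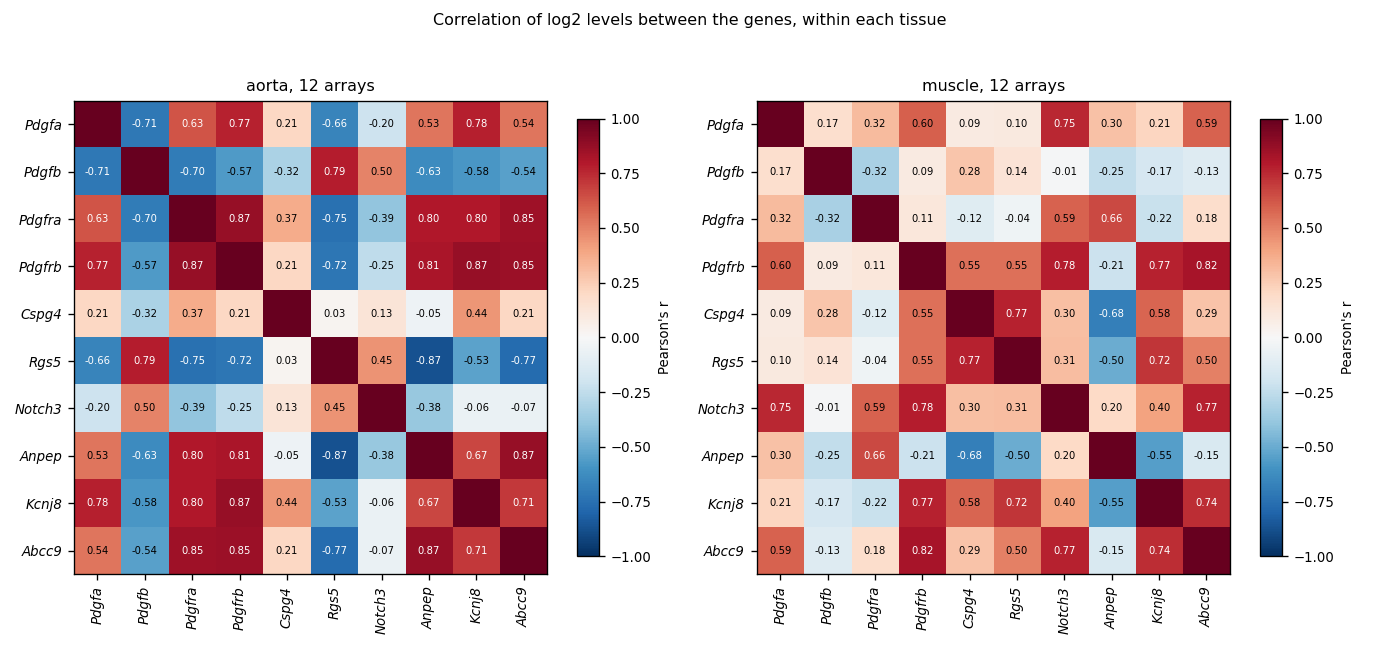
Pearson's r between the log2 levels of the 10 genes (both axes) over the 12 aorta arrays (left) and the 12 muscle arrays (right), with colour from -1 to 1. Rgs5 has r = -0.87 with Anpep and 0.79 with Pdgfb in the aorta, against -0.50 and 0.14 in muscle.

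The receptor genes ran with the fibroblast list to different degrees. Pdgfra had r = 0.84 with that list in the aorta (rho 0.86) and 0.97 in muscle (rho 0.96), and 0.76 and 0.94 without the 2 most extreme arrays. Pdgfrb had r = 0.90 with it in the aorta (rho 0.93) but 0.25 in muscle (rho 0.16). With the list of other mural genes, Pdgfrb had r = 0.33 in the aorta and 0.86 in muscle (rho 0.11 and 0.69), and the muscle value was 0.51 without the 2 most extreme arrays. Pdgfra and Pdgfrb themselves had r = 0.87 in the aorta and 0.11 in muscle. Among the other genes, r with the fibroblast list in the aorta was 0.89 (Anpep), 0.86 (Abcc9), 0.78 (Kcnj8) and 0.69 (Pdgfa). It was 0.01 (Cspg4), -0.18 (Notch3), -0.54 (Pdgfb) and -0.78 (Rgs5) there. In muscle it was 0.70 (Notch3), 0.64 (Anpep), 0.48 (Pdgfa), 0.24 (Abcc9), -0.03 (Cspg4 and Rgs5), -0.17 (Pdgfb) and -0.21 (Kcnj8). With the other mural genes in the aorta, r was 0.63 for Kcnj8, 0.49 for Pdgfa, 0.36 for Cspg4, 0.15 for Anpep and Notch3 and 0.12 for Pdgfra. It was 0.10 for Abcc9, 0.03 for Rgs5 and -0.23 for Pdgfb. In muscle it was 0.82 (Notch3), 0.76 (Abcc9), 0.69 (Rgs5), 0.62 (Kcnj8), 0.55 (Cspg4 and Pdgfa), 0.35 (Pdgfra), 0.01 (Pdgfb) and -0.03 (Anpep). With the smooth muscle list, Cspg4 had r = 0.72 in the aorta and 0.20 in muscle. The other genes had -0.14 to 0.41 in the aorta.

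Over all 24 arrays, with the mean of each tissue subtracted, the genes most like Pdgfra were Loxl1 (r = 0.97), Olfml3 (0.96), Adamts2 (0.95), Mmp23 (0.94) and Col2a1 (0.93). Those most like Pdgfrb were Medag (0.87), Hoxc9 (0.86), Ppfibp2 (0.86), Foxs1 (0.86) and Ccdc74a (0.85). For Pdgfb they were Casz1 (0.91), Gata2 (0.91), Flt1 (0.89), Lama5 (0.89) and Rhbdf2 (0.88). For Rgs5 they included Abcb1a (0.91), Hip1r (0.90), Sox17 (0.88) and 4930486L24Rik (0.87). Each is among the highest of all values computed and is a description of these arrays.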

How the data were processed

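RNA from 24 pools of sorted cells was hybridised to single-colour Agilent whole mouse genome arrays. Intensity was extracted with Agilent Feature Extraction, 10.5.1.1 per the file headers and 9.1 per the submitters' processing notes. The deposited log2 table holds the authors' values of the same arrays and served as an alternative. Here, outlier spots were left out and log2 of the processed signal was taken relative to the 75th percentile of the 43379 non-control spots of each array. Spots of a probe were averaged. A probe was tested when well above background on every array of 1 group. The number of arrays limits the precision. The percent of spots well above background was 59.5 to 75.7 per array.

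Differences were fitted with limma 3.58.1 (R 4.3.3) and adjusted by Benjamini-Hochberg over all probes, with a threshold of 0.05. Diet fits held a block for each strain and experiment, as the study's methods pair HFD with chow within an experiment, and strain and tissue fits used group means. The deviations of HFD and chow arrays of an experiment correlated at 0.00720 to 0.452, and those of aorta and muscle from the same animals at 0.0723 to 0.404. The brightest probe of a gene was used, with other probes named where they differ in sign. Of the marker lists, called genes were named, or the 3 with the largest difference where none was called. Of the 5 genes most like Rgs5, 1 is not reported here. The scripts were tested on simulated data. Gene names came from the RefSeq gene table of GRCm38.p6 by accession, which gave a symbol to 27198 of 41174 probes. The 10 genes, the marker lists and the tests were chosen with earlier results of these data known. Schwann cell, satellite cell and macrophage markers were also measured (median aorta minus muscle difference -0.66, -2.06 and 0.08). The alternatives were other background corrections and scalings, the dim-probe filter, blocks, the mean over probes, and leaving out each experiment or the HFD arrays of experiment 1.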

Additional observations from a re-analysis of the deposited data

Results flagged for a closer look

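Within a strain, 4 genes had every aorta pair higher on HFD and every muscle pair lower. For Cspg4 this held in both strains, with a mean diet response in the aorta above that in muscle by 1.80 in WT and 0.88 in KO. For Pdgfrb it held in KO (0.99), for Kcnj8 in WT (1.33) and for Abcc9 in WT (1.48). Of all 27387 probes, 1.35% have this pattern in WT and 1.46% in KO. The difference within a strain was not tested. The test of the mean of both strains, by limma, gave adjusted p-values of 0.198 (Cspg4), 0.371 (Pdgfrb), 0.251 (Kcnj8) and 0.139 (Abcc9).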

How the results depend on the processing

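In muscle, averaged over strains, 1 of the 10 genes (Rgs5) was called with normexp background correction, with only probes well above background on every array and with the slide as the replicate block, against 0 otherwise. Leaving out the replicate block of the diet fits gave 0 calls, as did the paired fits, and left 4 genes in muscle at an unadjusted p under 0.05, against 7 (12.1% of all probes, against 16.4%). Between tissues, 8 genes were called, 9 with the animal pool as the replicate block and 6 to 8 when an experiment was left out. Abcc9 was called there also with normexp (adjusted p = 0.0430), quantile normalization (0.0218), the deposited table (0.00541) and the stricter filter on dim probes (0.0419). Signs changed for values that had not been called. When an experiment was left out, the WT aorta diet difference of Rgs5 ran from -2.72 to 0.47, and its KO minus WT response from -2.17 to 1.01. The KO minus WT response of Pdgfra in muscle ran from -1.21 to 0.12. The aorta minus muscle response ran from -1.01 to 0.29 for Pdgfb, from -1.21 to 0.20 for Rgs5 and from -0.54 to 0.074 for Pdgfra. Without the HFD arrays of experiment 1, which here equals leaving out experiment 1, that response was 0.29 for Pdgfb and 0.10 for Rgs5. With the mean over probes it was 0.49 for Pdgfra. The cause was not tested. The 3 arrays of each group limit the precision.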
